A study of Mus musculus with 12 samples.

Results

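Transcripts of 9 apolipoprotein genes (Apoa1, Apoa2, Apoa4, Apoa5, Apob, Apoc1, Apoc2, Apoc3 and Apoe) and of Mttp, which encodes the microsomal triglyceride transfer protein, were followed in mouse liver. The members were taken by gene name from the count tables and make up 10 of the 54532 genes listed. All animals were male PPARγflox/flox mice that were given one intraperitoneal dose of an adeno-associated virus at 8 weeks of age and were then kept on a fast-food diet (FFD) holding 21% fat by weight, 0.2% cholesterol and 34% sucrose, with fructose and glucose in the drinking water. The groups labelled PPARG KO received AAV8.TBG.PI.Cre.rBG, in which the thyroxine-binding globulin (TBG) promoter drives Cre recombinase in hepatocytes. The groups labelled WT were control littermates given AAV8.TBG.PI.eGFP.WPRE.bGH, so they also carried the floxed alleles and a virus. Total RNA of whole liver was sequenced after 2 and after 5 months of FFD, with 3 libraries in each of the 4 groups and no chow-fed library among the 12. The labels number the libraries of a group as repeats and do not say that each came from its own mouse, so the p-values measure the spread between libraries, which may be partly technical.

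Apolipoproteins are the protein components of lipoprotein particles, and the liver is the main source of most of those in plasma. In the endoplasmic reticulum of the hepatocyte, MTP loads triglyceride onto the growing apoB chain, and the resulting particle leaves the cell as very-low-density lipoprotein (VLDL). The smaller exchangeable apolipoproteins then decide what happens to the particle in the circulation: apoC-II and apoA-V promote hydrolysis of its triglyceride by lipoprotein lipase, apoC-III opposes it, and apoE is the ligand by which hepatic receptors take up remnants. ApoA-I and apoA-II are the structural proteins of high-density lipoprotein (HDL).

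A pair of gene clusters holds 7 of the 10 members. In the mm10 coordinates of the tables, the cluster on chromosome 9 spans 43340 bases and holds Apoa1 (46228580 to 46230466, plus strand), Apoc3 (46232933 to 46235636, minus strand), Apoa4 (46240696 to 46243459, plus strand) and Apoa5 (46268633 to 46271919, plus strand). The cluster on chromosome 7 spans 27610 bases, lies on the minus strand and holds Apoc2 (19671579 to 19677941), Apoc1 (19689481 to 19692660) and Apoe (19696109 to 19699188), with Apoc4 between the first pair. Apoa2 lies alone on chromosome 1 (171225054 to 171226379, plus strand), Apob on chromosome 12 (7977648 to 8016835, plus strand) and Mttp on chromosome 3 (138089854 to 138144968, minus strand). All 10 are annotated as protein-coding, and their start and end match GENCODE vM21 of the same build.

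The bases directly before the annotated gene start are shown for the 3 chromosome 9 genes that have a promoter entry and for Apob, because that cluster holds both members that were called between KO and WT and members that were not, and because apoB is the backbone of VLDL. The sequences are from RefSeq (GRCm38.p6), read 5′ to 3′ on the gene's strand and trimmed to bases outside annotated exons of protein-coding genes. Capitals mark CAAAGTNCA, the letters of a hepatocyte nuclear factor 4 (HNF4) element, and TATAAA, the TATA box, each searched on both strands.
Apoa1, chr9:46228380-46228579, plus strand: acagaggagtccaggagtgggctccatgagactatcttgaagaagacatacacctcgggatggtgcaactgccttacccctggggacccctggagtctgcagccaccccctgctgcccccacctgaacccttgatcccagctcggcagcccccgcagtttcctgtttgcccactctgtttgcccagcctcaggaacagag
Apoa4, chr9:46240594-46240695, plus strand: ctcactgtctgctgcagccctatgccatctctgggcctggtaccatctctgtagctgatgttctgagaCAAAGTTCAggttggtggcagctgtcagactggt
Apoa5, chr9:46268383-46268632, plus strand: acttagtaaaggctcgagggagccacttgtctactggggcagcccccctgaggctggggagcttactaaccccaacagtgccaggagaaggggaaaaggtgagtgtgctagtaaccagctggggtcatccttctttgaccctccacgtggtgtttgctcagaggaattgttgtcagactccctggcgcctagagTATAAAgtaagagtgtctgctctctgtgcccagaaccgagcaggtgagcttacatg
Apob, chr12:7977427-7977647, plus strand: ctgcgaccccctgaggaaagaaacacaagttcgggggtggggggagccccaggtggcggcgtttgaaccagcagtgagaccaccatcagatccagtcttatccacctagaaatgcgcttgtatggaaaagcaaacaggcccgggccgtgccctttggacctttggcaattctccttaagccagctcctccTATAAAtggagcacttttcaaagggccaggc

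CAAAGTNCA was present in 392 of the 32851 promoter windows of 250 bases (1.19%), and among the 12 windows of the members it was present in the Apoa4 window alone. TATAAA was present in 12.4% of all windows and in 5 of the 12, those of Apoa2, Apoa5 (both of its windows), Apob and Apoe. The DR1 element, a direct repeat of the nuclear receptor half-site that PPARγ with its partner RXR, and HNF4 dimers, can bind, was searched by its consensus and was present in 11 windows overall (0.0335%) and in none of the members' 12. With a share this low, the lack of a DR1 match in 12 windows is no result about the members. These are matches of exact letters, and variant forms of the elements were not searched. A match does not show that a factor bound there, and a missing match does not show that an element is absent. Apoc1 and Apoc3 had no entry.

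The 12 libraries held 16367775 to 27452284 counts assigned to genes, of which 4.70 to 6.44% fell on mitochondrial genes. Counts were divided by library totals corrected with edgeR's TMM factors and are called normalized CPM below. Fold changes are on the log2 scale, with their standard error (SE), and adjusted p-values come from the quasi-likelihood test of edgeR and were corrected over all genes tested by the Benjamini-Hochberg method. A gene is called where the adjusted p was below 0.05. Pparg, the targeted gene, was not lower in the libraries labelled KO. Its level was 38.8, 41.4 and 37.7 normalized CPM in WT and 50.5, 66.5 and 52.1 in KO at 2 months, and 36.9, 41.4 and 37.1 in WT and 86.6, 93.0 and 75.1 in KO at 5 months (log2 fold change 0.52, SE 0.11, adjusted p = 0.0309, and 1.15, SE 0.08, adjusted p = 2.57e-06). The tables count reads per gene and not per exon, so they cannot show whether the floxed part was missing from these transcripts. The call for Pparg at 2 months was lost under 7 of 18 alternatives. Directions below refer to the libraries labelled PPARG KO.

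Levels of different genes can be compared only per length, and are given here as the group mean of normalized CPM per kb of exon. In WT liver at 2 months, Apoe led with 9720 ± 767 (SD, n = 3), followed by Apoa2 with 7310 ± 731 and Apoa1 with 3473 ± 290. Apoc1 (1994 ± 234), Apoc3 (952 ± 58.5) and Apoa4 (920 ± 406) came next, then Apob (551 ± 25.2) and Apoa5 (360 ± 49.9). Mttp stood below Apob, whose protein it lipidates, at 68.7 ± 5.46, and Apoc2 was last at 5.81 ± 1.41. Apoe was between the third and the fourth most abundant of all 54532 genes per kb in every group, while Mttp ranked between 604 and 975. The order of the 10 genes was the same in all 4 groups. Neighbours in this order did not overlap between libraries, with these exceptions: Apoc3 overlapped Apoa4 in WT at 2 months and in KO at 5 months, and Apoa4 overlapped Apob in WT at 2 months.

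**Figure D1:**
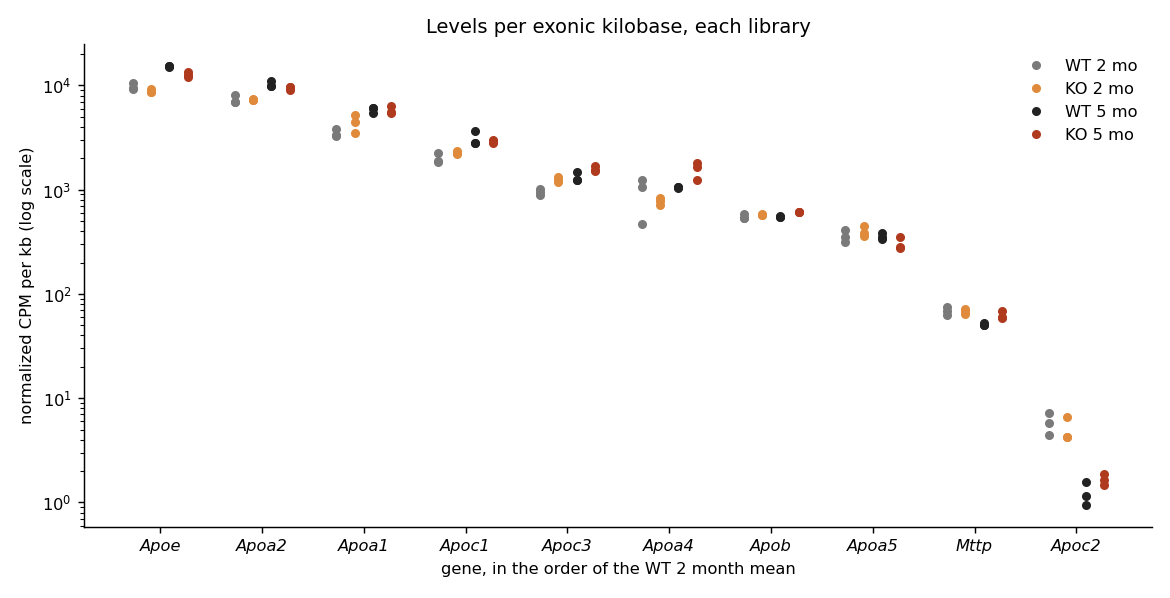
Normalized CPM per exonic kb of each member in each library, on a log axis, with genes ordered by their WT 2 month mean and colours for the 4 groups. Apoe, Apoa2 and Apoa1 hold the top of the range, Mttp lies between 50.3 and 74.2, and no Apoc2 point lies above 7.25.

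Apoc2 came last by a wide margin, with 13 to 143 counts per library, and its value is uncertain as a level of mRNA. Of its 813 exonic bases, 646 are shared with Gm44805, a read-through gene annotated on the same strand across Apoc4 and Apoc2, which leaves 167 bases (20.5%) that belong to Apoc2 alone. Gm44805 itself held 0 to 2 counts per library, and Apoc4 held 4906 to 9233. How reads in the shared bases were assigned is not given in the sources used here. Apoa4 shares 634 of its 1815 exonic bases with Gm47528 (20 to 366 counts) and 632 with Gm10680 (no count in any library), both on the opposite strand, and Apoa5 shares 524 of 2522 with Gm47544 (no count in any library). Mttp shares 589 of 6206 bases with genes on the opposite strand, Trmt10a and Gm43691. Whether the counting used strand is not stated. The other 6 members share no exonic base with another gene.

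Together the 10 genes held 4.46, 4.48 and 4.35% of all counts in the WT libraries at 2 months and 4.20, 4.20 and 4.18% in the KO libraries, and 5.83, 6.02 and 6.02% in WT and 5.37, 5.45 and 5.13% in KO at 5 months. Both KO groups lay below the WT group of the same time without overlap, and both 5 month groups lay above both 2 month groups. These are shares of uncorrected counts, without the TMM factors. At 2 months those factors were 1.011, 1.088 and 1.061 in WT and 1.005, 1.009 and 0.9789 in KO. The order of the shares at 2 months therefore need not hold for normalized CPM. Apoe alone made up 43.5 to 54.8% of the members' counts, so that gene weighs most in the share. These shares carry no test.

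**Figure D2:**
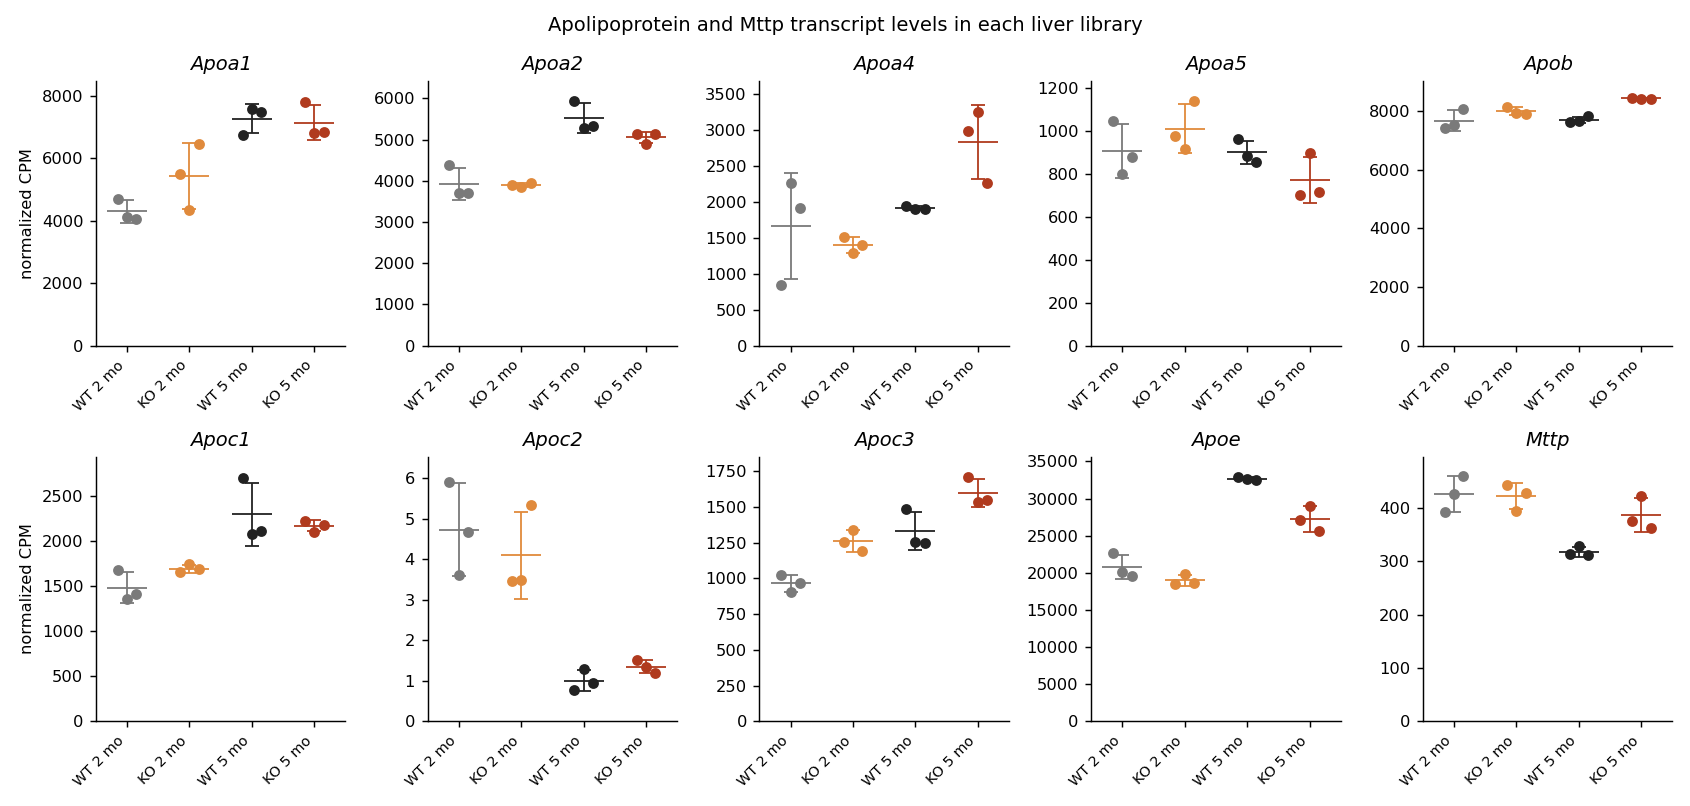
Normalized CPM of the 10 members in each of the 12 libraries (points), with the group mean and SD (bars, n = 3), on linear axes that start at 0. Apoa4 in the first WT library at 2 months (841.5) lies apart from the other 2 WT libraries, and Apoe separates the 2 month from the 5 month groups.

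At 2 months of FFD, the comparison of KO with WT asked whether loss of hepatocyte PPARγ changed these genes early in the diet, and 1 of the 10 was called. That gene was Apoc3, the inhibitor of lipolysis. Its level was 1025, 905.9 and 965.8 normalized CPM in WT and 1254, 1343 and 1192 in KO. Every KO library lay above every WT library, and Apoc3 rose 1.31-fold (log2 fold change 0.39, SE 0.09, adjusted p = 0.0469). Over all genes tested, 519 of 14573 were called (3.56%, with 1.78% higher and 1.78% lower). Groups that did not overlap were seen for 24.1% of genes, 12.1% higher and 12% lower in KO, beside 1 of 10 members. Every member except Apoc2 was an abundant gene, with a mean of at least 100 normalized CPM over the 12 libraries. Of the 1515 abundant genes, 94 were called higher and 44 lower, and 574 did not overlap (407 higher and 167 lower). The call for Apoc3 was narrow: it was lost with the replicate number as a block (adjusted p = 0.0772), with library size alone (0.0655), with upper quartile scaling (0.0566) and after leaving out any single library except the first WT library (0.0901 to 0.188). With the block, 817 genes were called in all and no member was among them, and with DESeq2 Apoc3 was called (adjusted p = 0.00125).

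Apoa1 had the next largest difference at 2 months. It measured 4705, 4124 and 4049 normalized CPM in WT and 5481, 4330 and 6438 in KO. The KO libraries were scattered and one lay within the WT range, and the log2 fold change of 0.33 (SE 0.14, adjusted p = 0.238) did not pass. Apoa2, its partner in HDL, measured 4379, 3692 and 3706 in WT and 3889, 3859 and 3944 in KO, with the KO values inside the WT range (log2 fold change −0.01, 95% interval −0.23 to 0.21).

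Neither gene that builds VLDL was called at this time. Apob measured 7426, 7526 and 8077 normalized CPM in WT and 8158, 7945 and 7907 in KO, and Mttp measured 392.5, 427.1 and 460.2 in WT and 442.4, 395.2 and 427.8 in KO. The groups overlapped for both genes. The 95% interval of the log2 fold change was −0.15 to 0.27 for Apob and −0.21 to 0.18 for Mttp.

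Apoa4, an intestinal and hepatic apolipoprotein carried on triglyceride-rich particles and HDL, was the least settled member. It measured 841.5, 2256 and 1911 normalized CPM in WT and 1504, 1289 and 1398 in KO. The first WT library held well under the level of the other WT libraries, and the KO libraries lay between them, so the interval of the log2 fold change ran from −1.21 to 0.69 (estimate −0.26, adjusted p = 0.779). Without that library the estimate was −0.58 and Apoa4 was called lower (adjusted p = 0.00242), as Apoc1 and Apoc3 were called higher, and 1577 genes were called in all. Gm47528, on the opposite strand of Apoa4, was at 7.098, 18.85 and 14.98 normalized CPM in the same WT libraries, with the first again the lowest.

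The other members were not called at 2 months. Apoc1 measured 1683, 1361 and 1408 normalized CPM in WT and 1651, 1742 and 1686 in KO (log2 fold change 0.19, adjusted p = 0.355), and Apoe measured 22650, 20130 and 19560 in WT and 18500, 19860 and 18600 in KO (−0.13, 95% interval −0.37 to 0.11). Apoa5, the activator of plasma lipolysis, measured 1046, 800.0 and 877.8 in WT and 976.4, 914.7 and 1138 in KO (0.15, 95% interval −0.12 to 0.42). All 3 overlapped between the groups.

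Markers of hepatocytes moved beside these values. In bulk liver, fewer cells of a type and less RNA per cell cannot be told apart. The summed level of 10 hepatocyte markers (Alb, Ttr and Cps1 among them) ran from 51630 to 62520 normalized CPM in WT and from 67720 to 80030 in KO at 2 months, and from 48720 to 52780 in WT and from 68290 to 78540 in KO at 5 months. Such a sum weighs its most abundant genes most. The median log2 fold change of the 10 was 0.34 at 2 months and 0.21 at 5 months, when 8 were higher in KO. Over time in WT the mean sum fell from 56610 to 51350 while 9 of the 10 markers rose (median 0.27). None of the 10 was called at 2 months by edgeR, where 3.56% of all genes were called. At that time 6 were higher at an unadjusted p below 0.05, and 4 were called with DESeq2, which called 988 of 14573 genes. At 5 months 3 were called higher and none lower, where 18.4% of all genes were called (8.9% higher). At an unadjusted p below 0.05, 6 were higher and 1 was lower at 5 months. When the libraries were scaled to these markers, the median log2 fold change of all genes tested moved to −0.36 at 2 months and to −0.17 at 5 months, and Apoc3 was not called at either time (0.05 and 0.11). Under this scaling Apoa2 (−0.35, adjusted p = 0.0366) and Apoe (−0.47, adjusted p = 0.00524) were called lower at 2 months, and Apoa2 (−0.28, adjusted p = 0.0125), Apoa5 (−0.38, adjusted p = 0.00669) and Apoe (−0.42, adjusted p = 0.00493) at 5 months, where Apoa4 was called higher (0.41, adjusted p = 0.0310). The part of this shift in the members' values was not tested.

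**Figure D3:**
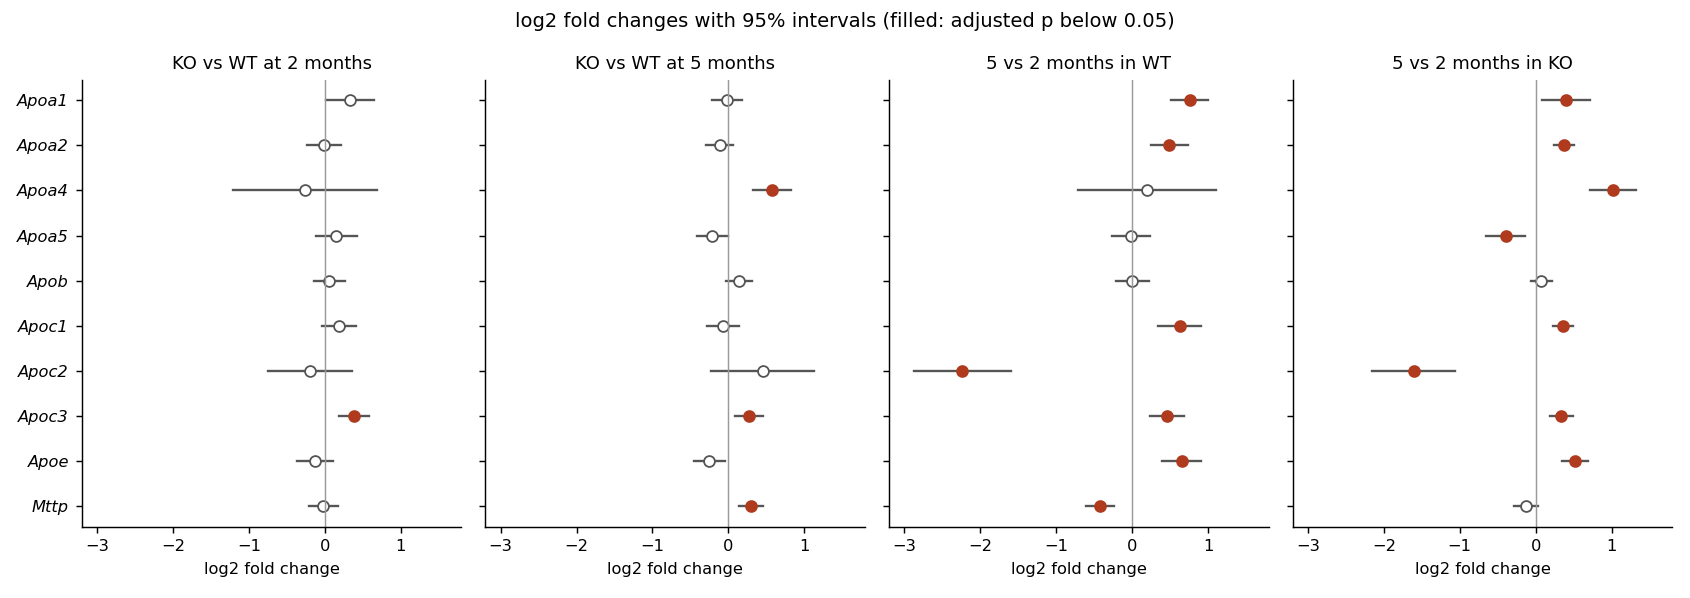
log2 fold change of each member (points) with its 95% interval (lines) for KO against WT at each time and for 5 against 2 months in each genotype, with filled points where the adjusted p was below 0.05. Apoc3 is filled in all 4 panels, and Apoa4 and Mttp are the other filled points for KO against WT, both at 5 months.

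At 5 months, 3 of the 10 members were called, all higher in KO: Apoa4, Mttp and Apoc3. The background was 18.4% of 14138 genes called, with 8.9% called higher and 9.51% called lower. Apoa4 measured 1942, 1901 and 1905 normalized CPM in WT and 2993, 3250 and 2258 in KO. Every KO library lay above the narrow WT range, and Apoa4 rose 1.49-fold (log2 fold change 0.58, SE 0.12, adjusted p = 0.00454). Its estimate was 0.47 to 0.72 with any single library left out and 0.41 when scaled to the hepatocyte markers (adjusted p = 0.0310). The call was lost without the first WT library (adjusted p = 0.0721) and in a fit of all 12 libraries that shares 1 estimate of the spread, and so takes in the scattered WT libraries of 2 months (adjusted p = 0.285).

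Mttp, the lipid transfer protein on which apoB secretion depends, measured 313.4, 329.0 and 311.9 normalized CPM in WT and 376.1, 421.9 and 362.6 in KO. The groups did not overlap, and Mttp rose 1.23-fold (log2 fold change 0.29, SE 0.07, adjusted p = 0.0133). The call was lost without the third WT library (adjusted p = 0.0653), without the second KO library (0.0579) and when scaled to the hepatocyte markers (log2 fold change 0.13, adjusted p = 0.211). Apob, the protein that MTP loads, measured 7617, 7655 and 7829 in WT and 8464, 8429 and 8431 in KO. The KO libraries were close to one another and above every WT library, but the difference did not pass (log2 fold change 0.14, 95% interval −0.03 to 0.32, adjusted p = 0.254).

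Apoc3 measured 1488, 1259 and 1252 normalized CPM in WT and 1708, 1534 and 1551 in KO. The groups did not overlap and Apoc3 rose 1.21-fold (log2 fold change 0.27, SE 0.09, adjusted p = 0.0433). As at 2 months the call was narrow, and it was lost after leaving out any single library except the first WT library (adjusted p 0.0560 to 0.188), with library size alone (0.0681), with upper quartile scaling (0.0528) and in the fit of all 12 libraries (0.0612). The WT libraries of the 2 comparisons are different, so the direction of Apoc3 was seen in separate sets of libraries, with 6 of 6 KO libraries above every WT library of their own time. Such a separation was seen for 12.1% of all genes at 2 months and 15.9% at 5 months. The share with it at both times was not counted. The summed hepatocyte markers separated in the same direction at both times. Scaled to them, Apoc3 was not called at either time (0.05 and 0.11).

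Apoe, the most abundant member, measured 32890, 32670 and 32450 normalized CPM in WT and 27060, 29060 and 25600 in KO at 5 months. All KO libraries lay below all WT libraries, yet the difference did not pass (log2 fold change −0.25, SE 0.09, adjusted p = 0.0814). It did pass with DESeq2 (adjusted p = 0.00426), with library size alone (0.0180), with upper quartile scaling (0.0483), when scaled to the hepatocyte markers (0.00493), with no filter on low counts (0.0279) and without the first WT library (0.0250). Apoe is made by macrophages as well as by hepatocytes. The summed level of 10 macrophage markers was 1405 to 1603 normalized CPM in WT and 706 to 880 in KO at 5 months, with 9 of the 10 called lower and no marker at 0. The sum of 6 markers of lipid-associated macrophages was 300.7 to 523.8 in WT and 301.6 to 360.7 in KO, with 3 called lower. The part of these cells in the Apoe difference was not tested.

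The remaining 5 members were not called at 5 months. Apoa2 measured 5938, 5285 and 5342 normalized CPM in WT and 5135, 4904 and 5139 in KO, with the KO libraries below every WT library (log2 fold change −0.12, 95% interval −0.29 to 0.06). Apoa5 measured 960.7, 883.9 and 854.4 in WT and 701.9, 894.8 and 713.7 in KO, where the second KO library lay within the WT range (−0.21, SE 0.10, adjusted p = 0.149). Apoa5 was called lower without that library (−0.33, adjusted p = 0.0172), with library size alone (−0.28, adjusted p = 0.0403), when scaled to the hepatocyte markers and with no filter on low counts (adjusted p = 0.0440). Apoa1 (6730, 7568 and 7486 in WT, 7794, 6796 and 6826 in KO) and Apoc1 (2700, 2076 and 2108 in WT, 2226, 2105 and 2179 in KO) overlapped, with intervals of −0.21 to 0.18 and −0.28 to 0.14. Within the chromosome 9 cluster, then, Apoc3 and Apoa4 were called higher at 5 months while Apoa1 and Apoa5 were not called. In all, 6 of the 10 members had groups that did not overlap, 4 higher and 2 lower in KO, against 34.9% of all genes (15.9% higher and 19% lower). Of the 1515 abundant genes, with a mean of at least 100 normalized CPM, 751 did not overlap (442 higher and 309 lower). Of the same genes 337 were called higher and 178 lower. Both shares are larger than those over all genes.

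**Figure D4:**
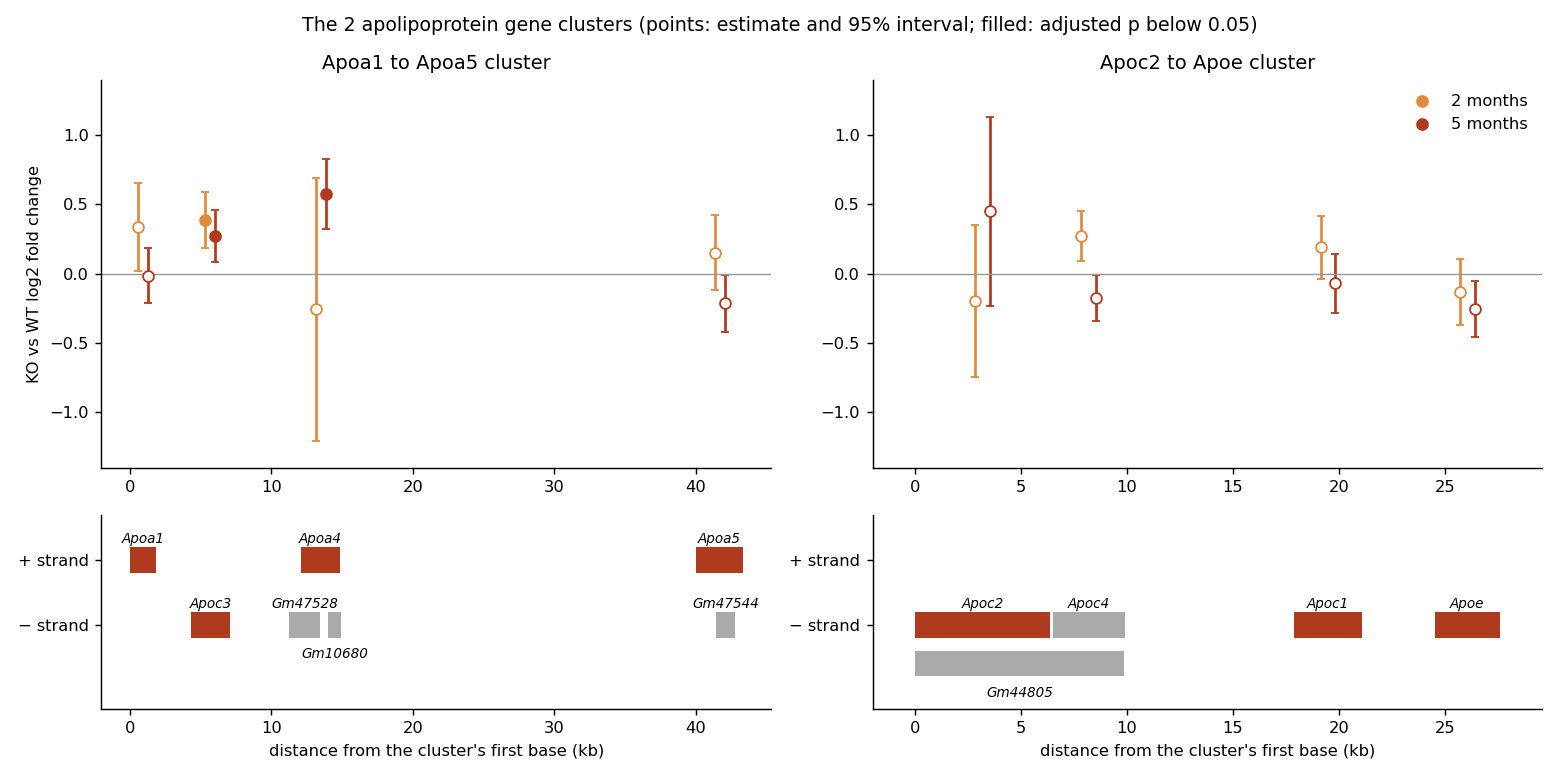
The chromosome 9 (left) and chromosome 7 (right) clusters, with genes drawn to scale by strand against distance in kb from the first base (members in red, other genes in grey), and above them the KO against WT log2 fold change with its 95% interval at 2 and 5 months (filled where the adjusted p was below 0.05). Apoc3 and Apoa4 are the only filled genes, and no gene of the chromosome 7 cluster is filled.

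The knockout effect at 5 months was then set against that at 2 months in one fit of the 12 libraries. Of 15127 genes, 238 (1.57%) were called, 0.661% higher and 0.912% lower, and none of the members was among them in edgeR or DESeq2. At an unadjusted p below 0.05 in edgeR, the Mttp effect was higher at 5 than at 2 months (log2 difference 0.30, SE 0.11, adjusted p = 0.214) and Apoa5 moved the other way (−0.38, SE 0.16, adjusted p = 0.292), which is 2 of 10 against 14.9% of all genes. For Apoa4 the difference was 0.82 with an interval of −0.15 to 1.79. It was called when the first WT library of 2 months was left out (1.15, adjusted p = 0.00274). For Apoc3 the difference was −0.13 (adjusted p = 0.699) and for Apoe −0.13 (95% interval −0.41 to 0.15).

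Time on the diet was compared next within each genotype, in the same libraries as above. The 5 month mice were also older, and any difference in handling between the times goes with it and cannot be told apart. In WT liver, 7 of 10 members were called between 2 and 5 months, against 46.4% of 14491 genes (23.8% higher and 22.7% lower). Of these, 5 rose: Apoa1 1.69-fold (log2 fold change 0.76, SE 0.11, adjusted p = 0.000305), Apoe 1.57-fold (0.65, SE 0.12, adjusted p = 0.00102), Apoc1 1.54-fold (0.63, SE 0.13), Apoa2 1.41-fold (0.49, SE 0.11) and Apoc3 1.38-fold (0.46, SE 0.10). For Apoe, the 5 month libraries spanned 32450 to 32890 normalized CPM against 19560 to 22650 at 2 months. None of the 5 overlapped between the times, and with the 2 that fell this made 7 of 10 members without overlap against 56.8% of all genes (28.7% higher and 28% lower). Of the 1515 abundant genes, 570 were called higher and 342 lower, and 1036 did not overlap (641 higher and 395 lower). Scaled to the hepatocyte markers, which moved the median of all genes by −0.27, Apoc3 was no longer called and the other 4 members that rose were.

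Mttp and Apoc2 were the members that fell in WT. Mttp went from 392.5 to 460.2 normalized CPM at 2 months to 311.9 to 329.0 at 5 months, and fell by 0.42 on the log2 scale (SE 0.09, adjusted p = 0.00222). It was called lower under every alternative tried, with estimates from −0.69 to −0.37. For Apob the log2 fold change was 0.00, with an interval of −0.22 to 0.22. Apoa5 was near 0 too (−0.01, 95% interval −0.26 to 0.23), although it was called lower when scaled to the hepatocyte markers (−0.26, adjusted p = 0.0262), and for Apoa4 the interval ran from −0.71 to 1.11.

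In KO liver, 8 of 10 members were called between 2 and 5 months, against 44.9% of 14478 genes (22.7% higher and 22.2% lower). Groups did not overlap for 9 of 10 members, 7 higher and 2 lower, against 55.6% of all genes (28.2% higher and 27.5% lower). Of the 1515 abundant genes, 579 were called higher and 345 lower, and 1052 did not overlap (649 higher and 403 lower). Among the members, Apoa4 led with a 2.02-fold rise (log2 fold change 1.02, SE 0.13, adjusted p = 0.000527), from 1289 to 1504 normalized CPM at 2 months to 2258 to 3250 at 5 months. Apoe rose 1.43-fold (0.52, SE 0.08, adjusted p = 0.000259), from 18500 to 19860 up to 25600 to 29060. Apoa2 (0.37), Apoc1 (0.36) and Apoc3 (0.34) also rose, and none of these 5 overlapped between the times. Apoa1 was called too (0.40, SE 0.14, adjusted p = 0.0459), but the call was lost with any single library left out except the third KO library of 2 months (adjusted p 0.0540 to 0.138), with library size alone (0.0601), with upper quartile scaling (0.0595) and with no filter (0.217).

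Apoa5 fell in KO, from 914.7 to 1138 normalized CPM at 2 months to 701.9 to 894.8 at 5 months (log2 fold change −0.39, SE 0.11, adjusted p = 0.0208), a call that was lost without the third KO library of 2 months or without the first or the third of 5 months (adjusted p 0.0525 to 0.0784). Mttp was not called in KO (−0.13, 95% interval −0.29 to 0.03), although it was called lower with library size alone (−0.19, adjusted p = 0.0462). The test of whether either time course differed between genotypes is the interaction given above, which neither passed. Apob was not called (0.07, 95% interval −0.06 to 0.21).

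The counts of Apoc2 fell over time in both genotypes, from 70 to 108 down to 13 to 22 in WT and from 61 to 143 down to 19 to 32 in KO (log2 fold change −2.24, SE 0.29, and −1.61, SE 0.25). The overlap with Gm44805 bears on these counts, and its part in the fall was not tested. The neighbouring Apoc4 rose in WT (0.46, SE 0.09, adjusted p = 0.00155) and had a log2 fold change of 0.00 in KO (SE 0.07). Gm47528, whose exons overlap Apoa4 on the other strand, fell as well (−2.77 in WT and −0.99 in KO) while Apoa4 was not called in WT and rose in KO. The KO against WT values of Apoc2 did not pass at 2 months (−0.19, adjusted p = 0.728) or 5 months (0.45, adjusted p = 0.374).

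The summed level of the 10 macrophage markers over the same months was 456 to 600 normalized CPM in WT at 2 months and 1405 to 1603 at 5 months (9 of 10 called higher), and 497 to 567 and 706 to 880 in KO (5 called higher and 1 lower). The 6 markers of lipid-associated macrophages summed to 132.9 to 244.8 in WT at 2 months and 300.7 to 523.8 at 5 months (4 called higher), and to 88.42 to 109.5 and 301.6 to 360.7 in KO (6 called higher). Markers of enterocytes, another source of Apoa4 and Apob, summed to 168.4 to 179.5 normalized CPM in WT at 2 months and 194.4 to 249.3 at 5 months without overlap. In KO the sums were 173.7 to 200.3 and 198.3 to 204.2. Of these 5 genes, 3 were at 0 in each 2 month group and 2 in each 5 month group, with Cdx2 at 0 in every library. Only 1 of the 5 passed the filter on low counts, so the sums rest almost wholly on that gene. It was called higher over time in WT (log2 fold change 0.30) and not in KO (0.07). The part of the macrophage and enterocyte markers in the members' values was not tested.

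Other genes of lipoprotein metabolism were read from lists of related function, which were tested with all genes. At 2 months, 6 of 14 other apolipoproteins tested were called higher and none lower, where 3.56% of all genes were called. Apol9b (46.2 ± 2.53 to 110 ± 5.67 normalized CPM, log2 fold change 1.25, adjusted p = 5.75e-05) and Apol9a (1.12, adjusted p = 0.00070) led, and since they are close copies their reads may be split between them. Saa4 (0.72), a constitutive HDL apolipoprotein, and Apon (0.64) followed. At 5 months the same list had 5 higher and 3 lower of 14, where 18.4% of all genes were called. This share of 18.4% is the background for every list at that time. Saa1 (986 ± 241 to 330 ± 65.8 normalized CPM, log2 fold change −1.57, adjusted p = 0.0125) and Saa2 (−0.99, adjusted p = 0.0399), the acute phase apolipoproteins, fell, again as a pair of close copies, and so did Clu (−0.32), while Apol7a rose (0.35).

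The VLDL assembly and export list holds the machinery around apoB and MTP. None of its 28 genes was called at 2 months with edgeR, while 2 were higher and 1 lower with DESeq2 and 3 were higher and 1 lower at an unadjusted p below 0.05. At 5 months 5 were called higher and 1 lower of 28, a share near the 18.4% of all genes, so the count is no result about the list. Dgat2, which makes the triglyceride that MTP transfers, went from 418 ± 25.1 to 591 ± 30.8 normalized CPM (log2 fold change 0.51, SE 0.07, adjusted p = 0.000362). Mia2, a receptor for large cargo at endoplasmic reticulum exit sites, rose (0.40, SE 0.06, adjusted p = 0.000627), as did Tm6sf2, which promotes lipidation of VLDL (0.49, SE 0.13, adjusted p = 0.0241). Sort1, a sorting receptor that binds apoB, fell (−0.83, SE 0.14, adjusted p = 0.00106). The median log2 fold change of the 28 genes was 0.02, against −0.01 over all genes tested. Of the genes for Apob mRNA editing, which shortens the apoB protein, Rbm47 (0.40) and A1cf (0.25), partners of the editing enzyme, were called higher at 5 months. The other 2 of the 4 genes were not called with edgeR but were lower with DESeq2 and at an unadjusted p below 0.05, and the list's median was −0.08.

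On the receiving side of lipoprotein traffic, the receptor and uptake list had 1 gene higher and 2 lower at 5 months of 11 tested, beside 18.4% of all genes. Apobr, a receptor for apoB-48 on macrophages, went from 4.92 ± 0.28 to 2.18 ± 0.09 normalized CPM (log2 fold change −1.16, SE 0.19, adjusted p = 0.000853), beside the lower macrophage markers given above. Mylip, a ubiquitin ligase, fell as well (−0.35, adjusted p = 0.0127). Lsr, the lipolysis-stimulated receptor, was called higher at both times, with a log2 fold change of 0.47 (adjusted p = 0.0228) at 2 months and 0.25 (adjusted p = 0.0201) at 5 months, and was the only gene of the list called at 2 months with edgeR, while 2 were higher and 1 lower with DESeq2 and 3 were higher and 2 lower at an unadjusted p below 0.05. The Lsr call was lost under 5 of 18 alternatives at 2 months and 7 of 18 at 5 months, with a log2 fold change of 0.12 and 0.09 when scaled to the hepatocyte markers. Among lipases and their modulators, Lpl fell at both times (−0.66 and −1.34, the first call being lost in the fit of all 12 libraries, adjusted p = 0.0671, and without the second or the third WT library or the first or the second KO library, 0.106 to 0.157), Pltp fell at 5 months (−0.52) and Angptl4, an inhibitor of lipoprotein lipase, rose at 5 months (0.54). At 2 months lipid-associated macrophage markers were lower too (3 of 6 called, sums of 132.9 to 244.8 in WT and 88.42 to 109.5 in KO), as was 1 of 8 stellate cell markers (sums of 612.6 to 759.2 and 460.7 to 472.6), and their part in the Lpl value was not tested. In the HDL lipidation list, Abcg1 (−1.10), Pltp and Abca1 (−0.23) fell at 5 months and none was called higher. At 2 months none of its 6 genes was called with edgeR, while 1 was higher and 1 lower with DESeq2 and 2 were higher and 1 lower at an unadjusted p below 0.05. At 5 months 9 of 10 macrophage markers and 3 of 6 markers of lipid-associated macrophages were called lower, as given above. Their part in the 5 month values of Abcg1, Abca1, Pltp and Lpl was not tested.

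**Figure D5:**
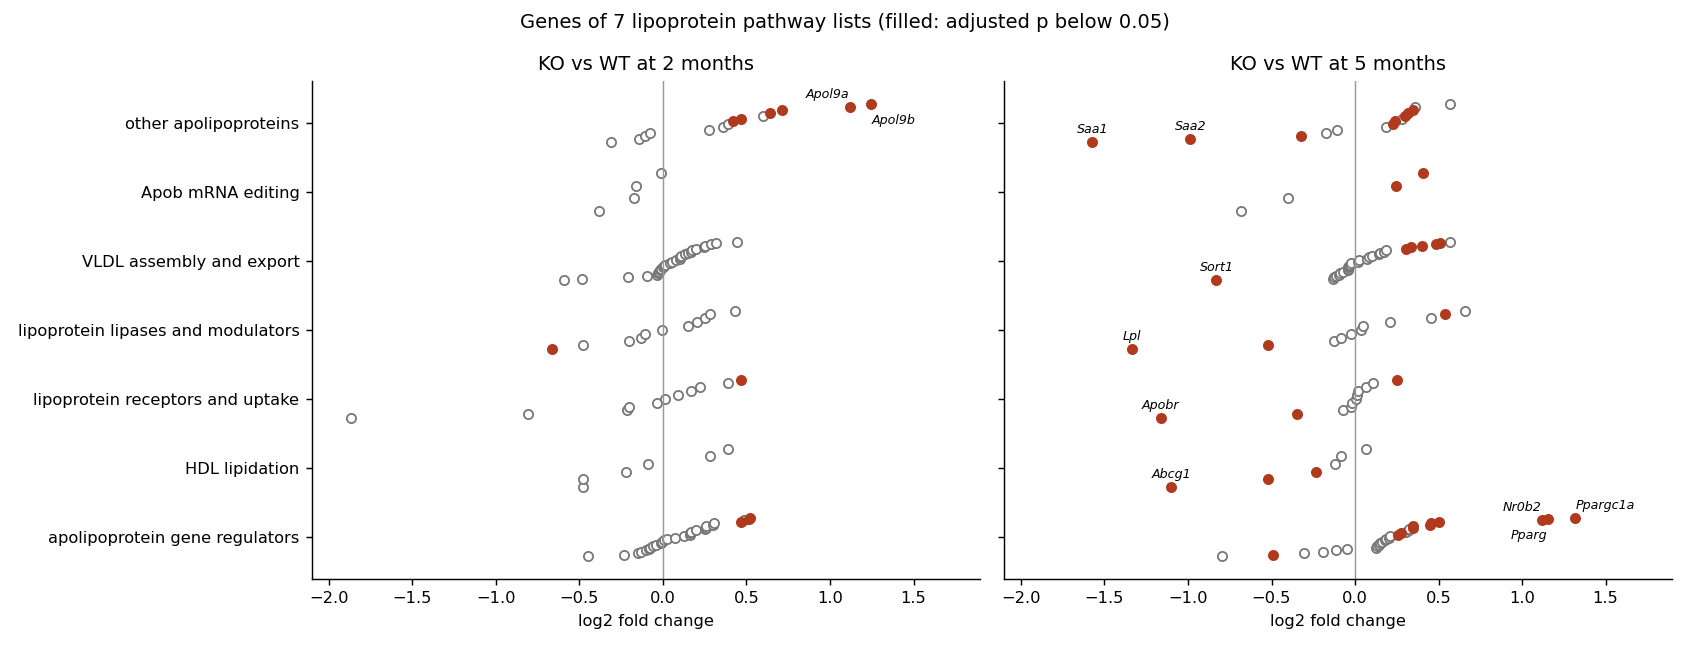
log2 fold change of the tested genes reported from 7 lipoprotein lists (one row per list, points spread vertically for visibility) for KO against WT at 2 months (left) and 5 months (right), with filled points where the adjusted p was below 0.05 and names where such a point lies beyond 0.8. The 5 month panel has more filled points than the 2 month panel, in both directions in most lists.

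The list of regulators of apolipoprotein genes had 3 of 28 called higher at 2 months, where 3.56% of all genes were called. These were Foxa3, Pparg (the targeted gene) and Mlxipl (log2 fold changes 0.52, 0.52 and 0.46). Scaled to the hepatocyte markers, none of the 3 was called (0.18, 0.17 and 0.13). At 5 months 10 were called higher and 1 lower, beside 18.4% of all genes. Ppargc1a (1.32), Pparg (1.15), Nr0b2 (1.12) and Nr1d1 (0.50) led, and each of them kept its call under that scaling. In the fit of all 12 libraries the calls for Nr1d1 (adjusted p = 0.230) and Nr0b2 (0.0521) were lost. Hnf4a, named after its values were seen because it is a known hepatic activator of several members, measured 459 ± 50.2 normalized CPM in WT and 568.8 ± 17.95 in KO at 2 months (log2 fold change 0.31, adjusted p = 0.105) and 514 ± 29.8 and 619 ± 24.2 at 5 months (0.28, adjusted p = 0.0151).

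The genes whose pattern over the 12 libraries was most like that of a called member were found among 8298 genes with a mean of at least 10 normalized CPM. For Apoa4 they were Ephb2 and Tmem41a (Pearson r of log2 levels 0.90 for both), for Apoc3 Mocs2 and Rnf181 (0.98 and 0.97), and for Mttp Me1 and Cyp4a12a (0.97 and 0.96). These are descriptions over 12 libraries in 4 groups, with no test. Both Mttp and Me1, malic enzyme, were lowest in WT at 5 months: Me1 averaged 602, 562, 262 and 429 normalized CPM in WT at 2 months, KO at 2 months, WT at 5 months and KO at 5 months.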

How the data were processed

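Total RNA of mouse liver was sequenced in 12 libraries, 3 in each of 4 groups (labelled genotype and months of FFD), grouped by the labels. The authors deposited raw counts per gene. The study's methods name STAR and mm10, the submitters' processing notes name HISAT2 and mm10, and the counting program, annotation release and strand setting are not given in the sources used here. Gene names that the tables stored as dates (27) were restored. Total counts ran from 16367775 to 27452284 per library, which sets the counting precision.

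Each comparison was fitted alone with edgeR 4.0.16 in R 4.3.3 (quasi-likelihood, robust, filterByExpr, TMM), two-sided, with Benjamini-Hochberg adjustment over all genes tested and calls below 0.05. The difference of KO effects was fitted over all 12 libraries. DESeq2 1.42.0 was an alternative, with other scalings, filters, thresholds, a replicate block and leaving out each library. The code was tested on simulated counts. Levels between genes are normalized CPM per exonic kb. Comparisons share libraries. Named genes were the 10 members, Pparg, up to 4 called genes of each list by size of change and the 2 genes most like each called member. Apoc4, Gm47528 and Hnf4a were added after their values were seen. Some genes of the receptor and uptake list are not reported here. The members and lists were chosen with earlier results of these data known.

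Libraries with the same repeat number deviated together at 2 months (correlation of deviations over 5000 genes 0.218, 0.323 and 0.14). Pairs with different numbers gave −0.273 to 0.113. The replicate block is therefore given beside that comparison. The labels do not say what a repeat number marks. At 5 months the correlations were −0.0806, −0.0586 and −0.172, over time in WT 0.239, 0.186 and 0.0198, and over time in KO −0.0394, 0.216 and −0.0216. The highest value of a pair with different numbers exceeded these in each case (0.145, 0.266 and 0.223).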

Additional observations from a re-analysis of the deposited data

Results flagged for a closer look

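The effect of the knockout differed between 2 and 5 months for 3 genes named above, by the edgeR interaction test over the 12 libraries. Pparg had a log2 fold change of 0.52 at 2 months and 1.15 at 5 months, a difference of 0.62 (adjusted p = 0.0432). Abcg1 had −0.48 (adjusted p = 0.0662) and −1.10, a difference of −0.63 (adjusted p = 0.0453). In the same test 6 of 10 macrophage markers were called lower (median log2 difference −1.07), and their part in the Abcg1 value was not tested. Apon had 0.64 and 0.23 (adjusted p = 0.0285), a difference of −0.43 (adjusted p = 0.0387). Scaled to the hepatocyte markers, its 2 month value was not called (0.30, adjusted p = 0.0821). In the interaction test 3 of 10 hepatocyte markers were higher (median log2 difference −0.33, none called). Of the 14 other apolipoproteins tested, Apon among them, 0 were higher (median −0.34). The part of the markers in the Apon value was not tested. All 3 interaction calls lie near the threshold, and no alternative fit of that test is reported for them. Over all genes, the 238 calls of this test became 83 to 567 with a library left out.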

How the results depend on the processing

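Of the members' log2 fold changes under the alternatives, 857 kept their direction and call, 40 lost a call, 22 gained one and 31 changed sign. For the pathway genes named, 473 values kept their call and 85 lost it, with no change of sign. Among these, Angptl4, Tm6sf2, Saa2 and Abca1 at 5 months and Mlxipl at 2 months each lost their call under 6 of 18 alternatives, A1cf at 5 months under 7 and Foxa3 at 2 months under 5. The causes were not tested.

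At 2 months, 519 genes were called (259 higher, 260 lower), against 1063 at an adjusted p below 0.1, 1608 at an unadjusted p with 1.3-fold, 988 with DESeq2, 2763 when scaled to hepatocyte markers (78 higher, 2685 lower), 1562 with no filter, 817 with the replicate block, 1153 with all 12 libraries and 117 to 1577 with a library left out. Library size alone gave 171 higher and 349 lower. Members called numbered 1, against 0 with library size, upper quartile scaling or the replicate block, 2 with hepatocyte markers or no filter, and 0 to 3 with a library left out. At 5 months, 2602 calls (1258 higher, 1344 lower) became 1593 to 3078 with a library left out, 597 higher and 3203 lower with hepatocyte markers, and 889 higher and 1895 lower with library size. Members called numbered 3, all higher, against 1 at an unadjusted p with 1.3-fold or with all 12 libraries, 5 with no filter and 1 to 3 with a library left out. Their direction turned to 1 higher and 3 lower (Apoa2, Apoa5 and Apoe) with hepatocyte markers and to 2 higher and 2 lower (Apoa5 and Apoe) with library size. Over time in KO, 8 members became 5 at an unadjusted p with 1.3-fold. For the difference of effects, 238 calls became 519 at an adjusted p below 0.1, 1563 at an unadjusted p with 1.3-fold, 594 with DESeq2, 793 with no filter and 83 to 567 with a library left out (567 without the first WT library of 2 months, 83 without the third WT library of 5 months), and members called went from 0 to 2 with no filter and 0 to 1 with a library left out. The replicate block changed no other member's call, and at 5 months A1cf (adjusted p = 0.0695) and Abca1 (0.0588) lost theirs under it.

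Without mitochondrial genes the members held 4.705% (WT) and 4.445% (KO) of counts at 2 months and 6.268% and 5.601% at 5 months. Scaled to hepatocyte markers, log2 fold changes turned sign at 2 months for Apoa1 (−0.01385), Apoa5 (−0.1859), Apob (−0.2911) and Apoc1 (−0.1469), at 5 months for Apob (−0.02126), over time in WT for Apoa4 (−0.1068) and Apob (−0.2582), and in the difference of effects for Apoa2 (0.109), Apoc3 (0.1045) and Apoe (0.09027). Apob also turned at 2 months with library size (−0.01772), and over time in WT with library size (−0.07654), upper quartile scaling (−0.02313), scaling without the 20 most abundant genes (−0.00289) and at least 10 counts in every library (−0.01593). With a library left out, values crossed 0 at 2 months for Apoa2 (−0.05358 to 0.07685), Apoa4 (−0.575 to 0.02092) and Mttp (−0.07133 to 0.04234), at 5 months for Apoa1 (−0.07812 to 0.02025) and Apoc1 (−0.135 to 0.06219), and over time in WT for Apoa4 (−0.1185 to 0.4776), Apoa5 (−0.09925 to 0.1034) and Apob (−0.01607 to 0.03822).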
